A study of Mus musculus with 6 samples.

Results

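The genes described here are 9 genes of stratified surface epithelium, measured in RNA labelled as mouse retina. They are the keratin genes Krt5, Krt12, Krt13, Krt14 and Krt15, the crystallin-like enzyme gene Aldh3a1, the transcription factor gene Trp63, and the cell adhesion genes Dsp and Perp. They were chosen by name, with the results of these arrays already known, as the probes that are not controls and that match 1 of these genes by RefSeq accession. This gave 15 probes, of which 10 passed the filter on dim probes, and each of the 9 genes had a passing probe. In all, 24073 of 32496 genes and unnamed features on the array were tested. Since the values of the arrays were behind the choice, all values of the 9 genes below are a description, and no test of them is read as support.

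The 6 two-colour arrays came from adult male C57BL/6 mice, 12 per group, whose right eyes were injected in the vitreous with 1 µM of SH-42, of SH-80 or, as the control, of phosphate-buffered saline. SH-42 and SH-80 are compounds known here by these code names. At day 7 the retinas were collected in pools of 4, and 3 arrays were made for each compound. On every array the labels put the RNA of the compound group in the green Cy3 channel and that of the control group in the red Cy5 channel, and the dyes were never exchanged. The authors' value table runs the other way, as Cy5 over Cy3, so the direction against the control was not settled. A ratio called higher or lower below is that of Cy3 relative to Cy5 and nothing more. Control pools may have been shared between arrays, since 12 mice pooled by 4 give 3 pools for 6 arrays, and the p-values measure only the spread between arrays.

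Stratified epithelium covers the cornea, the conjunctiva and the lids. Its basal cells hold filaments of keratin 5 paired with keratin 14, with keratin 15 in much of the basal layer, and p63 (Trp63) is the transcription factor that keeps them in the epithelial state. In the mouse eye, keratin 12 marks differentiating corneal epithelium, keratin 13 is a keratin of conjunctiva and of other mucous membranes, and Aldh3a1 is an enzyme stored at very high levels in the corneal epithelium. Desmoplakin (Dsp) ties the filaments to desmosomes, and Perp is a desmosomal membrane protein that p63 switches on. Of genes of rod photoreceptors, 10 of 10 were well above background in both channels on all 6 arrays. That shows retinal RNA and does not show that other tissue was absent. In Cy3, 21 of 23 lens genes and 5 of 13 skeletal muscle genes were also well above background on all 6 arrays.

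The promoters of Krt5 and Krt13 are shown because, of the keratin genes high on a single array as described below, only these had a usable entry. They are the 250 bases before the transcription start, from RefSeq on build GRCm38.p6, 5′ to 3′ on the strand of the gene (minus for both), at chr15:101712906-101713155 for Krt5 and chr11:100121567-100121816 for Krt13. Capitals mark the letters CACCC, read on either strand (as GGGTG on the other), which form the core of the box bound by Krüppel-like factors.
Krt5: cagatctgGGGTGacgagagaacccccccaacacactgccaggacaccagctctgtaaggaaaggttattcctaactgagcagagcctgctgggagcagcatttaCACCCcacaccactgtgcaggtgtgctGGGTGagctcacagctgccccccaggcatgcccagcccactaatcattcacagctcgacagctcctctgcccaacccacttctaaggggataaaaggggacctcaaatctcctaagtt
Krt13: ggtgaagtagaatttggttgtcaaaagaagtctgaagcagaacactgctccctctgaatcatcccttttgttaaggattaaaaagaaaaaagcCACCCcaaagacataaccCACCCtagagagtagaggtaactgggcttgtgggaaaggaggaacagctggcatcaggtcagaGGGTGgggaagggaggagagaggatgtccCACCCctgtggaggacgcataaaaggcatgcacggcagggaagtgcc
Krt5 had 3 such matches and Krt13 had 4, and 52% of 32851 promoter windows of this length hold at least 1. The letters TATAAA, also searched on either strand, were in neither window and were in 12.4% of all windows. The window of Dsp, the third gene with a usable entry, held neither. A match of so few letters is a description of the sequence, and no binding was measured.

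Before the values of single genes, 2 arrays have to be set apart. On SH-80 replicate 2 the Cy5 signal of the 9 genes had a median of 1.37 log2 units above each gene's own median over the 6 arrays, against -0.16 to 0.26 on the other 5 arrays, and Cy5 was highest there for 8 of the 9 genes. Over all 24073 genes tested, Cy5 was highest on that array for 7.06%. SH-42 replicate 1 stood apart over the genome: 833 genes (3.46%) had a Cy5 signal at least 1 log2 unit above the other 5 arrays, none of them (0) among the 9. Its log ratios correlated with those of the other arrays, across genes, at r between -0.159 and 0.163, while the other 10 pairs lay between 0.471 and 0.866. Genes are not independent replicates, so these coefficients only describe the arrays.

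The Cy5 channel carried most of the variation. Over the 6 arrays the range of Cy5 of the 9 genes had a median of 1.57 log2 units, and that of Cy3 a median of 0.257. Cy5 varied more than Cy3 in 9 of 9 genes and in 79.1% of all genes tested, whose median ranges were 0.384 and 0.179. Signals here are normalized log2 intensities after a background correction that adds an offset of 50, which pulls the ratios of dim probes towards 0. For these signals, though not for the ratios, the average intensity of both channels was also quantile normalized between arrays. The share of an array's spots judged well above background was 58.3% to 63.1% for Cy3 and 70.9% to 76.7% for Cy5.

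**Figure D1:**
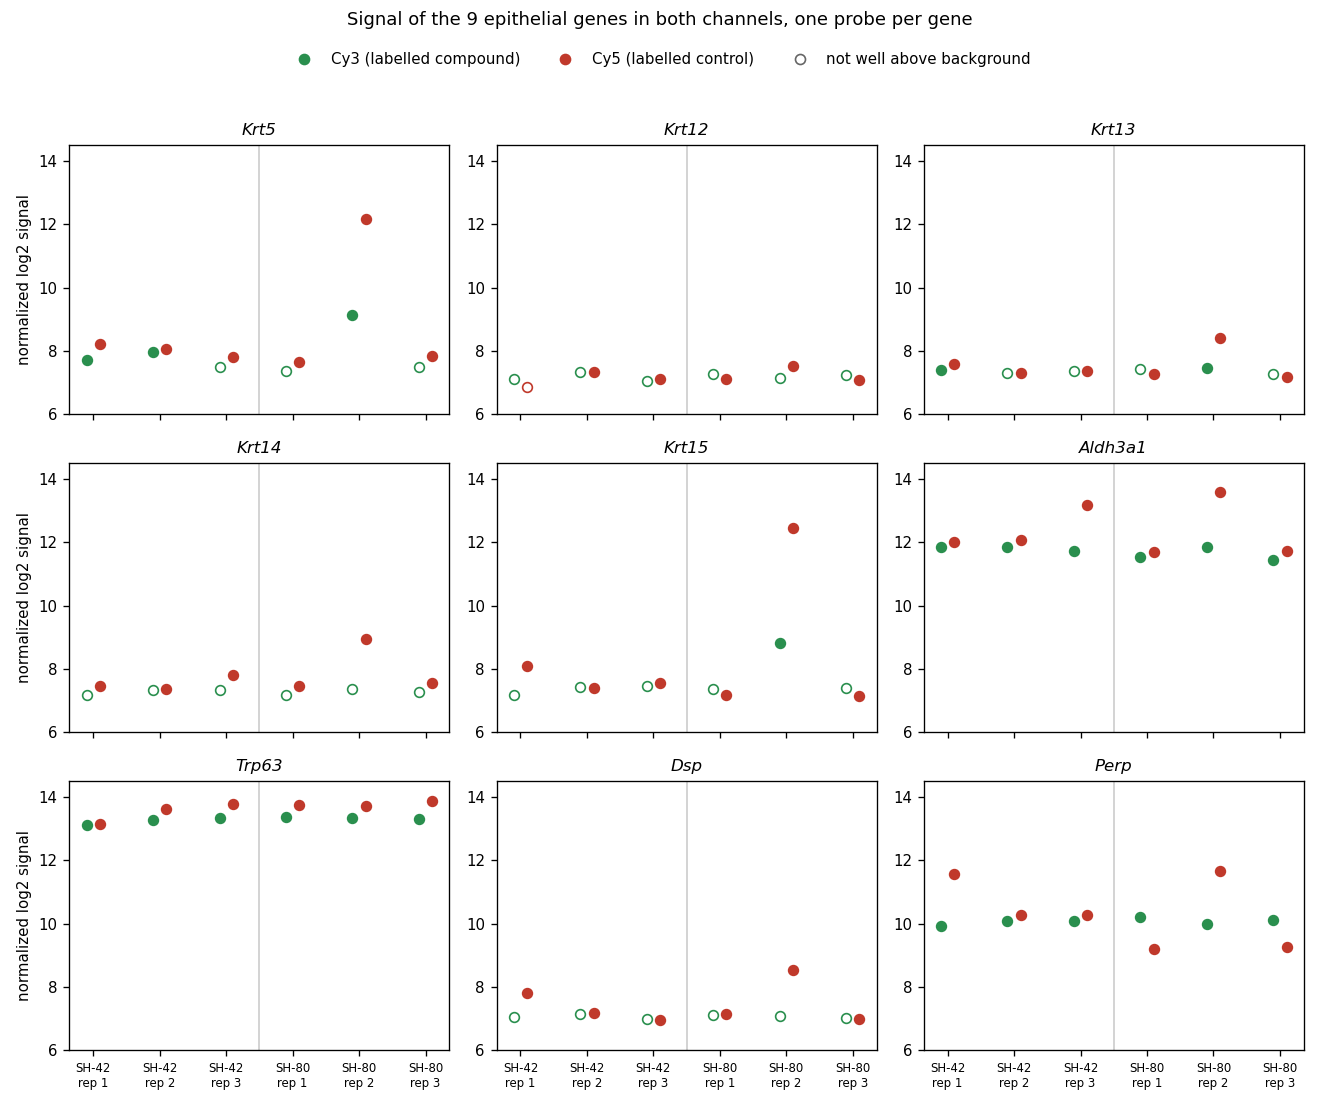
Normalized log2 signal (vertical axis) of the 9 epithelial genes on each of the 6 arrays (horizontal axis), 1 probe per gene, with Cy3 in green and Cy5 in red. Open circles are values not well above background. Cy5 of Krt5 and Krt15 reached 12.16 and 12.45 on SH-80 replicate 2 and were at most 8.23 and 8.09 on the other 5 arrays.

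Among the basal keratins, Krt15 showed the widest gap. Its Cy5 signal (probe A_55_P2006261) was 8.09, 7.41 and 7.57 on SH-42 replicates 1 to 3 and 7.17, 12.45 and 7.14 on SH-80 replicates 1 to 3. The value on SH-80 replicate 2 was 20.5-fold above the next highest array, SH-42 replicate 1. Cy3 was 7.17 to 7.46 on 5 arrays, where it was not well above background, and 8.83 on SH-80 replicate 2. Both channels were thus highest on the same array, with Cy5 far above Cy3.

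Krt5, the keratin of the whole basal layer, had the same outline. Its Cy5 signal (probe A_51_P186856) was 8.23, 8.05 and 7.80 on SH-42 replicates 1 to 3 and 7.67, 12.16 and 7.83 on SH-80 replicates 1 to 3, with SH-80 replicate 2 at 15.3-fold above the next array. Cy3 was 7.70, 7.95 and 7.50 on the SH-42 arrays and 7.36, 9.15 and 7.51 on the SH-80 arrays. It was not well above background on SH-42 replicate 3 and on SH-80 replicates 1 and 3. A second Krt5 probe (A_66_P116076) was too dim to pass the filter, and SH-80 replicate 2 was the only array on which its Cy5 signal, 7.82, was well above background. It lay at 6.35 to 6.77 in Cy5 on the others. Both Krt5 probes therefore put the high signal on the same array and in the same channel.

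Krt14 is the partner of keratin 5 in the basal filament. Its Cy5 signal was 7.46, 7.37 and 7.82 on the SH-42 arrays and 7.48, 8.93 and 7.56 on the SH-80 arrays, so SH-80 replicate 2 was again highest, at 2.16-fold above SH-42 replicate 3. Cy3 stayed at 7.16 to 7.36 and was not well above background on any array. Its ratio therefore has only a bound: Cy5 was at least 1.19-fold brighter than Cy3 over the SH-42 arrays and at least 1.54-fold brighter over the SH-80 arrays. These bounds compare the mean Cy5 signal with the higher of the dim Cy3 signal and the lowest signal well above background on each array, and they are open to dye bias. The same bound for Krt15 over the SH-42 arrays was at least 1.27-fold.

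The 2 keratins of differentiated surface cells differed from each other on that array. Krt13 had a Cy5 signal of 7.60, 7.30 and 7.37 on SH-42 replicates 1 to 3 and of 7.27, 8.41 and 7.18 on SH-80 replicates 1 to 3 (probe A_51_P307964). Its second probe (A_55_P2006296), too dim on the other 5 arrays at 6.63 to 6.90, read 9.35 in Cy5 on SH-80 replicate 2, while Cy3 was not well above background on any array. Over the SH-80 arrays that probe gave a bound of at least 1.21-fold for Cy5 over Cy3, measured well above background on 1 of 3 arrays.

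Krt12, the corneal keratin, was near background. Its Cy5 signal (probe A_55_P2006300) was 6.86, 7.34 and 7.12 on the SH-42 arrays and 7.12, 7.52 and 7.08 on the SH-80 arrays, and SH-80 replicate 2 exceeded SH-42 replicate 2 by 0.18 log2 units. Cy3 was not well above background on any of the 6 arrays, and a second probe (A_55_P2082684) was dim in both channels on all 6. No fold is given for Krt12, and its ratios, which enter the counts and the plot of log ratios, are those of a dim Cy3 channel. Of 14 further genes of corneal enzymes, mucins and surface proteins on the array, 9 were tested. Of those tested, 4 were at least 1 log2 unit above the other arrays in Cy5 on SH-80 replicate 2, as were 0.17% of all genes tested. Since Krt12, the keratin that marks the cornea among the 9 genes, was near background, the 9 are called surface epithelium genes here and no source tissue is named. Cross-hybridisation between members of the keratin family was not tested, since the probe sequences were not used here.

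Aldh3a1 had a pattern of its own, with 2 high arrays. The Cy5 signal of its brighter probe (A_55_P2101216) was 12.01, 12.08 and 13.19 on SH-42 replicates 1 to 3 and 11.70, 13.61 and 11.73 on SH-80 replicates 1 to 3. Cy3 stayed between 11.45 and 11.87. The other probe (A_55_P2065562) also passed the filter and separated the arrays more widely, with Cy5 at 8.85, 8.52 and 12.61 on the SH-42 arrays and at 7.87, 13.15 and 7.92 on the SH-80 arrays. SH-42 replicate 3 and SH-80 replicate 2 were high with both probes.

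In Cy3 the probes of Aldh3a1 disagreed. The dimmer probe was 10.20 on SH-42 replicate 3 and 10.67 on SH-80 replicate 2 against 8.46 to 8.66 elsewhere, whereas the brighter probe was not higher there. Lens genes had their highest median Cy5 deviation on the same pair of arrays. The median of 22 lens genes, mostly crystallins, was 1.19 on SH-42 replicate 3 and 1.41 on SH-80 replicate 2. It was also 0.74 on SH-42 replicate 2, where neither Aldh3a1 probe was high. The part of lens RNA in the values of Aldh3a1 was not tested.

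Trp63 did not share the high signal on SH-80 replicate 2 with its brighter probe. With that probe (A_55_P2161055) Cy5 was 13.15, 13.62 and 13.78 on the SH-42 arrays and 13.74, 13.72 and 13.86 on the SH-80 arrays, and Cy3 lay between 13.13 and 13.36. This was the only one of the 9 genes whose highest Cy5 signal was not on SH-80 replicate 2, and its lowest was on SH-42 replicate 1. Its Cy5 range over the 6 arrays was 0.71 log2 units, above the median of 0.384 over all genes. The second Trp63 probe (A_51_P216550) was dim in Cy3 on all 6 arrays. In Cy5 it read 7.46 on SH-80 replicate 2 and 6.72 to 6.87 on the others, so the probes did not give the same array order.

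The desmosomal genes Dsp and Perp were high in Cy5 on SH-80 replicate 2 and also on SH-42 replicate 1. Dsp, from a probe spotted 10 times on each array, had a Cy5 signal of 7.80, 7.17 and 6.97 on SH-42 replicates 1 to 3 and of 7.16, 8.53 and 6.99 on SH-80 replicates 1 to 3. Cy3 was not well above background on any array, and Cy5 was at least 1.08-fold brighter over the SH-42 arrays and at least 1.17-fold over the SH-80 arrays. Perp had Cy5 signals of 11.58, 10.28 and 10.28 on the SH-42 arrays and of 9.21, 11.65 and 9.26 on the SH-80 arrays, with Cy3 between 9.94 and 10.20. SH-42 replicate 1 and SH-80 replicate 2 lay above the other 4 arrays for both genes. A second Dsp probe (A_51_P201884) was dim in both channels on all 6 arrays.

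Skeletal muscle genes had the same pair of high arrays. The median Cy5 deviation of 11 muscle genes was 3.48 on SH-42 replicate 1 and 3.45 on SH-80 replicate 2, and between -0.27 and -0.03 on the other 4. Their median Cy3 deviation on SH-80 replicate 2 was 0.08. The part of muscle or other tissue attached to the eye in the values of Dsp and Perp was not tested. In RNA of a pooled tissue, more cells of a type and more RNA per cell cannot be told apart.

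Set against control, the surface epithelium genes were mostly lower in Cy3, by less than the spread between arrays for most of them. For SH-42, 8 of 9 had a negative mean log2 ratio, with a median of -0.27 over the 9 genes and of -0.03 over all genes tested, of which 13724 of 24073 were negative. None (0 of 9) passed an adjusted p of 0.05 in limma with Benjamini-Hochberg adjustment, where 0.602% of all genes did and 5646 of 24073 had an unadjusted p below 0.05, as had 1 of the 9, Trp63. For SH-80, 8 of 9 were negative with a median of -0.49, and 1 of 9 passed, where 14.7% of all genes did and 10.1% did so in the lower direction. A share of 1 in 9 is near that background. With each array centred on its median in place of loess, the median over all genes for SH-42 was -0.25, and that of the 9 genes, -0.19 with 6 of 9 negative, was no longer below it.

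The call for SH-80 was Trp63, from its brighter probe alone. That probe read 13.15 to 13.86 in Cy5, and the other, at 6.72 to 7.46, did not pass the filter. The cause of this gap in level between the probes was not tested. With the brighter probe, the log2 ratio of Trp63 was -0.37, -0.39 and -0.55 on SH-80 replicates 1 to 3. The mean was -0.44 ± 0.0904 (SE, n = 3), with an adjusted p of 0.0338 in limma. On the SH-42 arrays the ratio was -0.02, -0.34 and -0.43, with a mean of -0.26 ± 0.0904 and an adjusted p of 0.17 in limma. All 6 values were negative. The call for SH-80 was lost without any 1 of the 3 SH-80 arrays (adjusted p of 0.132, 0.147 and 0.205 in limma without replicates 1, 2 and 3), without SH-42 replicate 2 (0.0527), and in other settings given in the closing section. The mean itself was -0.46 without SH-80 replicate 2.

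For the basal keratins the mean over SH-80 arrays rested on SH-80 replicate 2. Krt15 had log2 ratios of -0.92, 0.00 and -0.11 on the SH-42 arrays and of 0.19, -3.62 and 0.27 on the SH-80 arrays, with a mean of -1.05 ± 0.742 (SE, n = 3) for SH-80. Without that array the mean for SH-80 was 0.23, of the opposite sign. Krt5 had log2 ratios of -0.53, -0.10 and -0.30 for SH-42 and of -0.31, -3.01 and -0.32 for SH-80, with a mean of -1.21 ± 0.514 for SH-80. Krt5 stayed negative without that array, at -0.31, but its Cy3 signal was not well above background on SH-80 replicates 1 and 3. That value is therefore the ratio of a dim Cy3 channel. Adjusted p-values for SH-80 over all arrays were 0.352 for Krt15 and 0.148 for Krt5 in limma.

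Krt14 was lower in Cy3 on all 6 arrays, at -0.30, -0.04 and -0.47 for SH-42 and at -0.31, -1.57 and -0.30 for SH-80. Its mean for SH-80 was -0.73 ± 0.252 (SE, n = 3) with an adjusted p of 0.0968 in limma, and -0.30 without SH-80 replicate 2. Since Krt14 was dim in Cy3 throughout, these ratios hold less information than the bound. With the processed signals of the scanner, which carry no offset, Krt14 passed the threshold for both compounds. It was at -1.22 for SH-42 and -1.93 for SH-80 (adjusted p of 0.0477 and 0.0124 in limma), while the median over all genes was -0.11 and -0.12. In that setting 4351 of 24073 genes passed for SH-42 and 5631 for SH-80, so a call there is common.

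The remaining genes had no call for either compound. Perp was at -1.64, -0.21 and -0.19 for SH-42 and at 0.98, -1.66 and 0.86 for SH-80, so that its mean for SH-80, 0.06 ± 0.558 (SE, n = 3), hides values on both sides, and it was 0.92 without SH-80 replicate 2. Aldh3a1 had means of -0.60 ± 0.378 for SH-42 and -0.73 ± 0.378 for SH-80, and -0.22 for SH-80 without replicate 2, with negative ratios on all 6 arrays. Krt13 was at -0.08 ± 0.208 and -0.23 ± 0.208 for SH-42 and SH-80, and at 0.12, of the opposite sign, for SH-80 without replicate 2. Dsp was at -0.25 ± 0.31 and -0.49 ± 0.31, against a Cy3 channel that was dim throughout, and at -0.01 for SH-80 without replicate 2. Adjusted p-values of these 4 genes in limma were between 0.219 and 0.948 for SH-80.

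**Figure D2:**
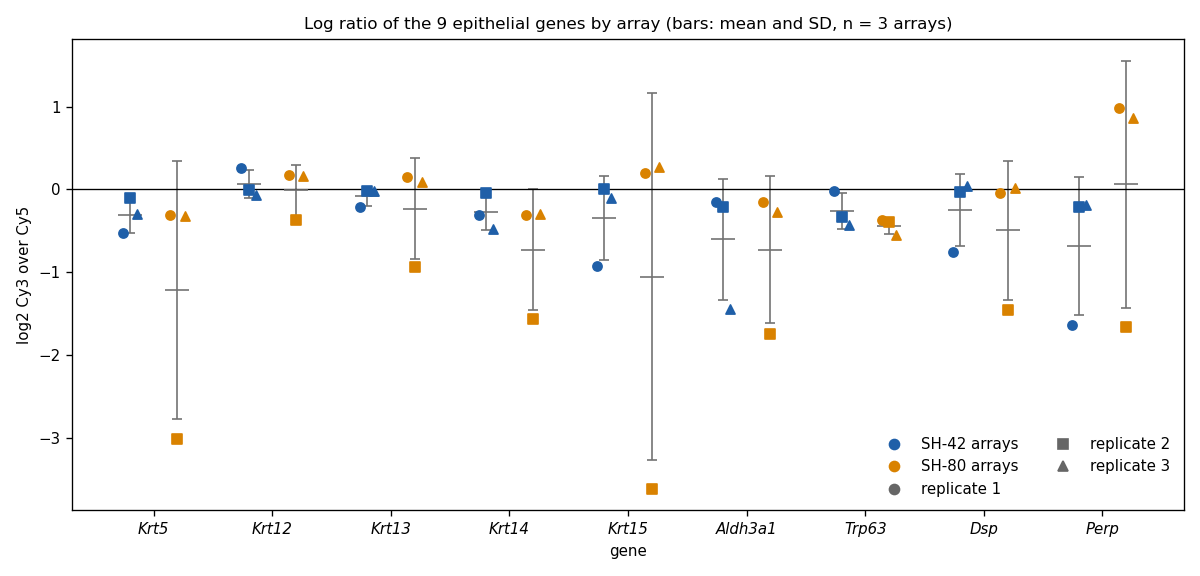
Log2 ratio of Cy3 over Cy5 (vertical axis) of the 9 epithelial genes (horizontal axis) on the SH-42 arrays (blue) and the SH-80 arrays (orange), with a marker shape per replicate and grey bars for the mean and SD of 3 arrays. SH-80 replicate 2 (orange squares) lies lowest of the SH-80 arrays for 8 genes, down to -3.62 for Krt15.

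Without SH-80 replicate 2, the surface epithelium genes no longer had a common direction for SH-80: 5 of 9 were negative, the median was -0.01 and 0 of 9 passed in limma, as did 0 of all genes in that smaller fit and in those without SH-80 replicate 1 or 3. For SH-42 without replicate 1, the median was -0.20 and 8 of 9 were negative. Slide 1 held SH-42 replicates 1 and 2 and slide 2 the other 4 arrays. Within slide 2 the median over the 9 genes was -0.19 for SH-42, from 1 array, and -0.49 for SH-80, with 8 of 9 negative for each. With the slide as a fixed block it was -0.31 for both, and with the slide as a random block -0.27 and -0.50.

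SH-42 and SH-80 were compared at 1 dose and 1 time, as SH-42 minus SH-80, which is 1 pair of compounds. None (0 of 9) of the genes and 0% of all genes passed an adjusted p of 0.05 in limma, with 944 of 24073 genes, and 0 of the 9, at an unadjusted p below 0.05. The differences were wide in error. Krt15 differed by 0.71 log2 units with a 95% interval from -1.83 to 3.25, Krt5 by 0.91 (-0.85 to 2.66) and Perp by -0.74 (-2.65 to 1.17). Trp63 had the narrower interval, 0.17 (-0.14 to 0.48). The median over the 9 genes was 0.17 with all arrays and -0.20 without SH-80 replicate 2. These intervals do not show that the compounds act alike. Both compounds may share control pools, so their ratios are not independent of each other.

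SH-80 replicate 2 was then searched for other genes like these. In Cy5, 41 of 24073 genes (0.17%) lay at least 1 log2 unit above the other 5 arrays. They included 3 of the 9 surface epithelium genes (Krt15, Krt5 and Krt14, at 4.36, 3.93 and 1.11 log2 units above the next array). A further 8 were in other lists of epithelial genes, 0 in lists of other tissues and 30 in no list. The rule leaves out genes that were also high on a second array. Median Cy5 deviations on SH-80 replicate 2 were 3.45 for 11 muscle genes and 1.41 for 22 lens genes, against 1.37 for the 9 genes. In Cy3, 3 genes (0.0125%) passed the same rule, Krt15, Krt5 and Kremen2, at 1.37, 1.19 and 1.15 log2 units.

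The 8 genes of the other epithelial lists were named after their values were seen. Muc4, a mucin anchored in the membrane of surface epithelia, had a Cy5 signal of 11.45 against at most 8.02 elsewhere. Krt6b, a keratin of activated and stratified epithelium, read 11.24 against at most 7.86. For Muc4 and Krt6b the Cy3 signal on that array, 7.70 and 7.83, was not apart, unlike that of Krt5 and Krt15. Krt19 and Krt17, keratins of simple and of basal or activated epithelium, lay 1.74 and 1.33 log2 units above the next array, and envoplakin (Evpl), a protein of the cornified envelope and the desmosome, 1.30. The others were S100a14, a calcium-binding protein of epithelia, Lypd3, a surface protein of stratified epithelium, and the mucin Muc20, at 1.75, 1.33 and 1.14 in that order.

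Of the genes in no list, several are known from skin and other stratified epithelium, and they too were named after their values were seen. Alox12e, an epidermal lipoxygenase, lay 2.66 log2 units above the next array, Calml3, a calmodulin-like protein of epithelium, 2.58, and Aqp3, a water and glycerol channel of basal keratinocytes, 2.39. Trim29, a protein of the basal cells of stratified epithelium, lay 1.68 above, and Asprv1, a protease of the epidermis, 1.71. The enzymes Cyp2f2, Adh1 and Cbr2, which handle foreign compounds and alcohols, lay 2.64, 2.55 and 2.19 above.

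**Figure D3:**
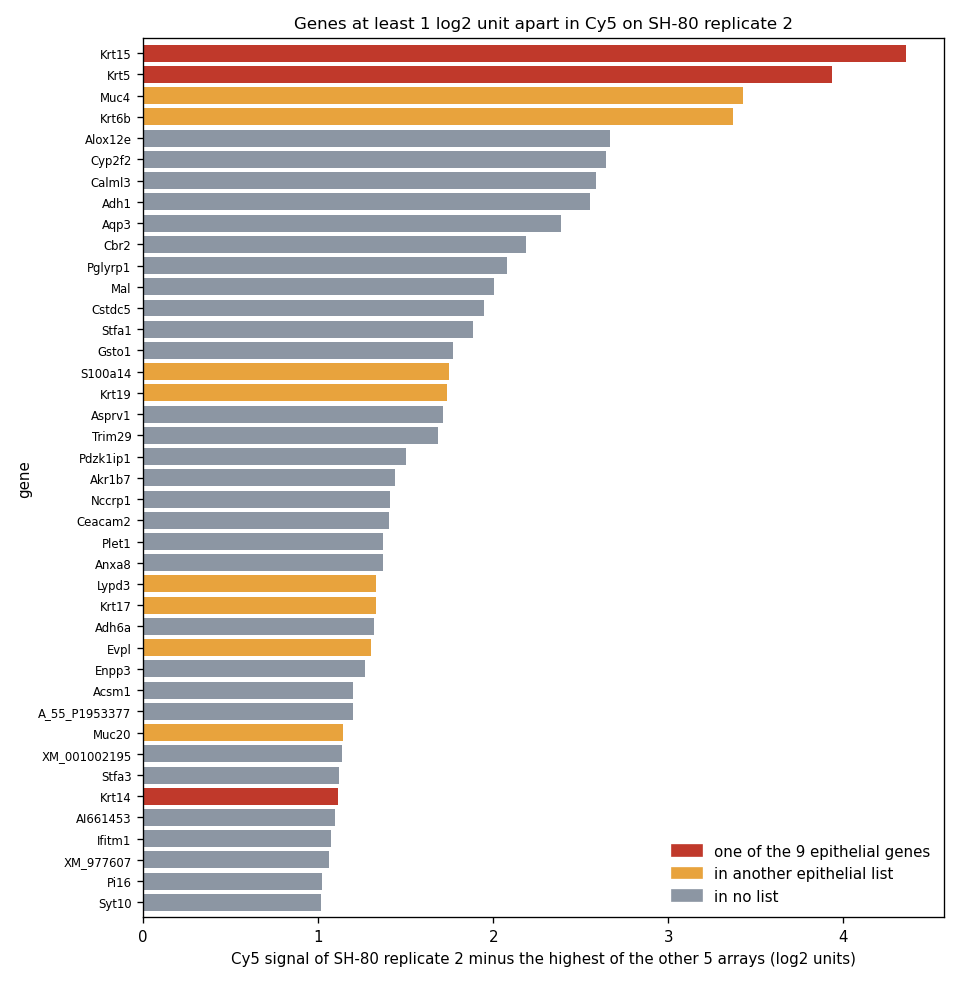
Distance in log2 units (horizontal axis) of the Cy5 signal of SH-80 replicate 2 from the highest of the other 5 arrays, for the 41 genes at 1 or more (vertical axis), coloured by list. Krt15 and Krt5 (red) have the longest bars, at 4.36 and 3.93, followed by Muc4 and Krt6b (yellow).

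The wider epithelial lists deviated less than the 9 genes on SH-80 replicate 2, with no test of that difference. The 9 were chosen with these values known, so the gap is only a description. Muscle genes (11) and lens genes (22) deviated more there, with medians of 3.45 and 1.41 in Cy5 against 1.37 for the 9. Of the epithelial lists, that of corneal enzymes, mucins and surface proteins was nearest, with a median Cy5 deviation of 1.12 over 9 genes. Desmosome partners (8 genes) and genes of the basal layer and its anchorage (11) were at 0.27 and 0.30, epithelial junction and identity genes (12) at 0.10 and other epithelial keratins (11) at 0.03. Genes of conjunctival goblet cells (4), the mucus-secreting cells of the conjunctiva, were at -0.08. Their mucin Muc5ac read 7.51 in Cy5 on that array, below the 7.60 to 7.91 of the others. Connective tissue genes (8) were at 0.80 on SH-80 replicate 2 and at 2.45 on SH-42 replicate 1, and retinal stress genes (10) at -0.08 and 2.88.

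**Figure D4:**
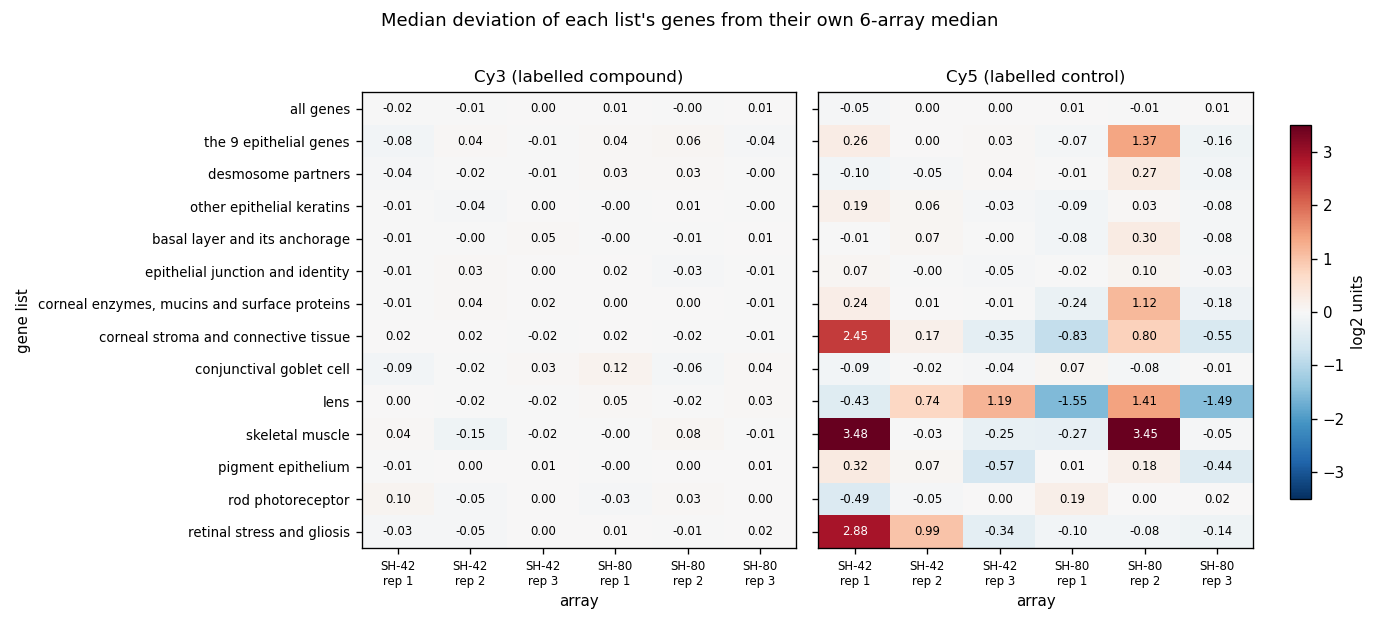
Median deviation in log2 units (colour and number) of the genes of each list (vertical axis) from their own median over the 6 arrays (horizontal axis), for Cy3 on the left and Cy5 on the right. The 9 epithelial genes are at 1.37 in Cy5 on SH-80 replicate 2, and all lists lie between -0.15 and 0.12 in Cy3.

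In limma, few genes of these lists passed an adjusted p of 0.05, and the shares for SH-80 are to be read against the 14.7% of all genes called, 10.1% in the lower direction. For SH-42 it was 0 in each of the 5 other epithelial lists. For SH-80, 1 of 8 desmosome partners was lower: Pkp3, a plakophilin of the desmosomal plaque, at -0.42 ± 0.0568 (adjusted p of 0.0233). Of the other epithelial keratins 1 of 11 was lower, Krt16, a keratin of activated epidermis, at -0.22 (adjusted p of 0.0378). Of the junction and identity genes 2 of 12 were lower, the splicing regulator Esrp1 at -0.30 (0.0295) and the transcription factor Grhl2 at -0.32 (0.0493). No gene (0 of 11 and 0 of 9) of the basal layer list or the corneal enzyme list passed. For SH-42, Pkp3, Krt16, Esrp1 and Grhl2 were at -0.26, -0.20, -0.10 and -0.07, also negative but without a call. The dyes were never exchanged, so dye bias of single genes was not tested. Median ratios for SH-80 were -0.26, -0.15, -0.05, 0.05 and -0.21 for these 5 lists in that order, against -0.03 for all genes tested. Without SH-80 replicate 2 these medians were -0.11, 0.06, 0.00, 0.08 and 0.26, so that those of the other keratins and of the corneal enzymes turned sign. No gene (0 of 24073) passed for SH-80 when any 1 of its arrays was left out, so the loss of these calls there says nothing of single genes.

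Some listed genes had ratios of the other sign or no call. Sprr1a, a small protein of the cornified envelope, was at 0.53 ± 0.278 for SH-42 and 0.73 ± 0.278 for SH-80 (adjusted p of 0.288 and 0.119 in limma). Itgb4, a hemidesmosome integrin subunit of the basal layer, was at -0.41 and -0.23, and Dsc3, a desmosomal cadherin, at -0.45 and -0.26. Itga6, the partner of Itgb4 and picked after its values were seen, had Cy5 signals of 12.21 on SH-42 replicate 1 and 11.97 on SH-80 replicate 2 and of 9.79 to 11.46 on the others, the pair of arrays on which Perp was high.

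The genes whose ratios were most like the mean of the 9 genes were found over the 6 arrays, among 2756 genes with a range of at least 1 log2 unit. That mean was -0.47, -0.11 and -0.33 on the SH-42 arrays and 0.03, -1.64 and 0.00 on the SH-80 arrays. The nearest by root mean square difference were Ceacam2 (0.105 log2 units), Plet1 (0.117), Nccrp1 (0.122), Adh6a (0.167) and the unnamed probe A_55_P1953377 (0.170). Next came Gpha2 (0.172), an unnamed transcript (0.188), Muc20 (0.193), Lypd3 (0.20) and Neb (0.221), the last a giant protein of the muscle thin filament. With 6 arrays, likeness here is set largely by SH-80 replicate 2, where these 10 genes had ratios between -1.84 and -1.36.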

How the data were processed

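RNA of mouse retina was measured on 6 two-colour Agilent 4x44K arrays, 3 per compound. The 9 genes, the gene lists, the other settings and the rule on which genes to name were chosen with earlier results of these data known. Per the labels, Cy3 holds the RNA of the compound group and Cy5 that of the control group.

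Per the file headers, the scanner files hold each spot's intensity, its local background, a processed intensity, and a log10 ratio of processed red over processed green. The deposited value table is, from its values, log2 of processed Cy5 over Cy3 plus a constant per array (r of 0.9995 to 0.9998 across probes), with column medians of -0.0531, -0.0606, -0.0612, -0.0611, -0.0464 and -0.0754. Scale and centring were thus settled and the direction against the control was not. Feature Extraction was version 11.0.1.1 per the file headers and 9.3.2.1 per the submitters' processing notes.

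Median spot signals were corrected with normexp (offset 50), normalized within arrays by loess with control spots at weight 0, and turned into a log2 ratio, Cy3 over Cy5. For the signals of single channels, the average intensity of both channels was then quantile normalized between arrays, which leaves the ratios unchanged. Of 39429 probes in 43020 spots that are not controls, 26055 matched a symbol through RefSeq accessions. Spots flagged as outliers (1095 over 6 arrays) were left out, 0 of them of the 9 genes, and 0 spots were saturated. Probes well above background in 1 or both channels on 3 arrays or more were kept, 29452 of them, and 9977 were removed. The brightest probe stood for a gene, which gave 24073 features (15925 with a symbol, 19 lacking a value on at least 1 array). The number of arrays limits the precision.

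The 6 arrays were fitted together in limma 3.58.1 (lmFit, eBayes), under R 4.3.3 with the packages data.table (1.17.8) and jsonlite (2.0.0), with a coefficient for each compound, two-sided tests and Benjamini-Hochberg adjustment over all genes at 0.05. Errors are SE of the model, and intervals are 95% intervals. The fit was tested on simulated data, in which 200 of 24073 genes were changed, and recovered 43.3%, 82.1% and 89.4% of genes changed by 0.5, 1 and 2 log2 units for SH-42 against control, and 44.8%, 80.6% and 93.9% for SH-80 against control. For SH-42 minus SH-80 it recovered 14.9%, 73.1% and 93.9%. False calls numbered 11, 4 and 3 for these comparisons in that order. The rates describe the simulated data, and calls in the real data changed with the arrays used, so they are not carried over. The named genes were all 9, up to 3 per list by smallest p, and the 10 most alike in profile. The labels number replicates 1 to 3 for each compound. Deviations of equally numbered arrays correlated at -0.153, -0.431 and 0.181, so the numbers were not taken to pair arrays. No 2 arrays held identical values. The other settings were of the background correction, the dye normalization, the values' source, scaling, probe filter, probe summary, variance prior, slide, replicate block and leaving out each array. Plots were made in Python 3.11.15 with matplotlib 3.10.9.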

Additional observations from a re-analysis of the deposited data

Results flagged for a closer look

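Among the surface epithelium genes, 4 had a Cy5 signal on SH-80 replicate 2 that lay farther from the other 5 arrays than Dixon's 95% limit for 6 values allows. Krt15 was at 12.4 with the next array at 8.09, and Krt5, its neighbour in the basal layer, at 12.2 with the next at 8.23. Krt14, the partner of keratin 5, was at 8.93 with the next at 7.82, and Krt13, a keratin of conjunctiva, at 8.41 with the next at 7.60. Trp63, the transcription factor of basal epithelium, was apart on the low side, at 13.2 on SH-42 replicate 1 with the next at 13.6. These 6 arrays span both compounds, since Cy5 is labelled control on each. For genes not chosen by their values, chance gives such a result in about 1 of 20 groups. The 9 genes were chosen with these values known and are not independent of each other, so that rate is no yardstick for their count. The share of all genes past this limit is not given here. A high level on the same array in 4 keratin genes is a description of that array, and its cause was not tested.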

How the results depend on the processing

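The difference between SH-42 and SH-80 had 0 genes, and 0 of the 9, past the threshold in each setting run, with 944 genes at an unadjusted p below 0.05 in the reported fit. Counts against control depended on the setting. For SH-42 the 145 genes became 3182 with no background correction (36.5% higher, against 9.66%), 0 with an offset of 0, 4351 with processed signals, 4325 with the deposited value table, 9059 with median centring, 4 with scaling between arrays, 77 with the mean over probes, 0 with a trended and robust prior, 0 with the arrays of 1 compound alone, 0 with the slide as a fixed block, 128 with it as a random block and 0 with the replicate block. Within slide 2 it was 1197, from a single SH-42 array that is assumed to vary like the SH-80 arrays. For SH-80 the 3541 genes became 5631 with processed signals (14.4% higher, against 31.4%), 5569 with the deposited table (14.9% higher), 647 with scaling, 2219 with the strict filter, 0 with the trended and robust prior, 9185 with 1 compound alone, 0 with the slide as a fixed block, 2368 with it as a random block, 9185 within slide 2 and 0 with the replicate block. Leaving out 1 array gave 0 to 438 genes for SH-42 and 0 to 9340 for SH-80. It was 0 for SH-80 without any 1 of its own arrays, 9340 without SH-42 replicate 1 (the highest) and 2265 when SH-42 replicate 2 was left out.

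Of the 9 genes, 1 (Krt14) passed for SH-42 with processed signals and 1 with the deposited table, and 2 (Aldh3a1 and Trp63) with median centring, where the median of all genes shifted from -0.03 to -0.25. For SH-80, 2 (Krt14 and Trp63) passed with processed signals and with the deposited table, and 0 with scaling, the trended and robust prior, the fixed slide block or the replicate block (Trp63 at an adjusted p of 0.0829 in limma under the last). The random slide block kept the call of Trp63 (0.0443). Leaving out 1 array gave 0 to 1. Single ratios of the 9 genes were counted as unchanged in 505 comparisons of settings. In 24 they moved by more than 1 SD without a change of call. They gained a call in 6 and lost one in 8, with the cause not tested. The replicate numbers carry no stated pairing, so a call lost under that block is not a smaller difference. Signals near background limit Krt12, Krt13, Krt14, Krt15 and Dsp most, since Cy3 was well above background on at most 2 of 6 arrays for each. They also limit Krt5, for which it was so on 3 of 6.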
